A study of Mus musculus with 18 samples.

Results

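The mRNA of 10 genes that switch inflammation on and off in microglia was followed across 4 mouse genotypes: the cytokines *Il1a*, *Il1b*, *Tnf* and *Il18*, the inflammasome genes *Nlrp3*, *Casp1* and *Pycard*, and the NF-κB genes *Nfkb1*, *Nfkbia* and *Tnfaip3*. They were chosen by symbol, and all 10 were found among the 55536 genes of the count table. NF-κB is a transcription factor held in the cytoplasm by inhibitors until a receptor for a microbial product, tumor necrosis factor or interleukin-1 frees it. It then turns on cytokine genes and also the genes of its own inhibitors, a negative feedback loop. The NLRP3 inflammasome is a protein complex in which a sensor and an adaptor activate caspase-1, the protease that cuts the precursors of interleukin-1 beta and interleukin-18 into their secreted forms. In the brain microglia are a main source of these cytokines.

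RNA was sequenced from microglia that were enriched from the striatum by a magnetic sort for CD11b, an integrin subunit found on microglia and on other myeloid cells too. All mice were C57BL/6 by the labels and adult by the study's account, which gives no age in months for the cell isolation. The 4 groups were WT (5 samples, 1 female and 4 males), Tyrobp-KO (3 samples, 2 females and 1 male), Q175 (5 samples, 4 females and 1 male) and Q175;Tyrobp-KO (5 samples, 2 females and 3 males). Q175 mice carry, in 1 copy, a huntingtin gene with an expanded CAG repeat in every cell, and model Huntington's disease. Tyrobp-KO mice lack *Tyrobp*, which encodes a signaling adaptor of microglial receptors such as TREM2, in all cells from conception, so neither mutation is limited to microglia. Q175;Tyrobp-KO mice carry both. WT and Q175 differ in their share of females.

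Total counts were between 11260410 and 29771983 per sample. *Tyrobp* had 340 ± 116 CPM (read counts scaled to a common library size after TMM normalization, which adjusts for library composition) in WT and 284 ± 65.6 in Q175 (SD, n = 5 each), against 20.04 ± 2.67 in Tyrobp-KO (SD, n = 3) and 13.1 ± 2.15 in Q175;Tyrobp-KO (SD, n = 5), as the labels have it. All 14 microglia markers had counts in every sample, with a summed level between 12340 and 25280 CPM. Markers of other brain cells were present in every sample as well. The summed level of 11 astrocyte markers ran from 510 to 1031 CPM in WT, 728 to 4081 in Tyrobp-KO, 922 to 6255 in Q175 and 661 to 3225 in Q175;Tyrobp-KO, that of 9 oligodendrocyte markers from 1646 to 6488 CPM over all samples, and that of 12 neuron markers from 157 to 740 CPM. The 14 monocyte and neutrophil markers summed to between 40.7 and 253 CPM in WT, 107 and 319 in Tyrobp-KO, 62.6 and 116 in Q175, and 50.4 and 150 in Q175;Tyrobp-KO. No marker of these lists was at 0 in all samples of a group. A set of 18 genes that respond to tissue dissociation summed to between 560 and 1286 CPM, and only *Jund* among them was at 0 throughout a group, Q175;Tyrobp-KO. In these bulk samples fewer microglia and less RNA per microglial cell cannot be told apart.

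Letters that fit the NF-κB consensus stand just before the transcription start of some of these genes. In the RefSeq windows of GRCm38.p6 that were searched, from 250 bases before to 50 bases after each start, 9 of the 10 genes had a window, and *Nfkb1* had none. A degenerate NF-κB consensus of 10 bases, searched on both strands, was found before the start of 3 of these 9 genes. Counted by window, it was found in 3 of their 11 windows and in the same stretch of 7.30% of all 32851 windows, and 1.03% held 2 or more matches. The matches lay before *Nfkbia*, which like *Tnfaip3* encodes an inhibitor of NF-κB, and before 1 of the starts each of *Tnfaip3* and *Nlrp3*. They are shown because these genes are followed as readouts of the loop, with the matching bases in capitals and each stretch written on the strand of its gene.
*Nfkbia*, chr12:55492648-55492696, minus strand: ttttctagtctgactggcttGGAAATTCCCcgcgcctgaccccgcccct
*Tnfaip3*, chr10:19015506-19015555, minus strand: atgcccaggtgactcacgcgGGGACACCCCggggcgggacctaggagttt
*Tnfaip3*, chr10:19015411-19015442, minus strand: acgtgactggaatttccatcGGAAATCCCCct
*Nlrp3*, chr11:59541363-59541412, plus strand: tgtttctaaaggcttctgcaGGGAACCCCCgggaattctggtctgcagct
The *Nfkbia* match began 29 bases before the start, the *Tnfaip3* matches 125 and 12 bases before it, and the *Nlrp3* match 186 bases before it. A match describes these letters only, and was not tested as a binding site.

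The 10 genes differed widely in level. Compared per kilobase of exon and averaged over 18 samples, *Il1a*, which encodes interleukin-1 alpha, was the highest at 37.5 ± 10.2 CPM per kilobase (SD, n = 18). It was followed by *Pycard* (28.5 ± 5.72), which encodes the inflammasome adaptor ASC, *Nfkbia* (27.3 ± 6.22), which encodes the inhibitor IκBα, and *Il18* (24.8 ± 3.52). *Nlrp3* (19.8 ± 7.89), the sensor, and *Casp1* (18.8 ± 5.88), the protease, lay in the middle. *Nfkb1* (11.9 ± 3.41), which encodes the p105 precursor of the p50 subunit, and *Tnfaip3* (8.69 ± 1.81), which encodes the ubiquitin-editing enzyme A20, came next. *Tnf* (2.58 ± 1.15) and *Il1b* (1.64 ± 0.664) were the lowest on this scale. On this scale the order was firm over samples at its ends: *Il1a* exceeded *Pycard* in 16 of 18 samples, *Tnfaip3* exceeded *Tnf* in 18 of 18 and *Tnf* exceeded *Il1b* in 15 of 18. In the middle it was not, since *Pycard* exceeded *Nfkbia* in 10 samples, *Nfkbia* exceeded *Il18* in 10 and *Nlrp3* exceeded *Casp1* in 9 of 18. The length used counts every base in any annotated exon, 3800 for *Pycard* and 12061 for *Nfkb1*, and not 1 transcript. Another length could change the order. Without division by length *Nfkb1* (143.6 CPM), *Pycard* (108.1) and *Nlrp3* (80.38) had higher means than *Il1a* (74.08). *Tnf* (4.226) and *Il1b* (3.135) were again the lowest.

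**Figure D1:**
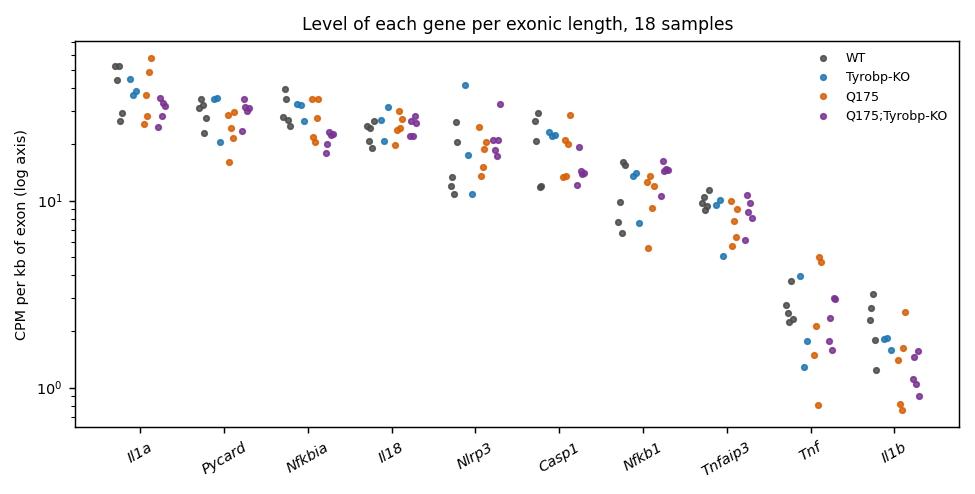
Level of each gene as CPM per kilobase of exon on a log axis, ordered by the mean over 18 samples, 1 point per sample and 1 color per genotype. *Tnf* and *Il1b* lie below the other 8 genes in mean level, at 2.58 and 1.64 against 8.69 for *Tnfaip3*, the next gene up.

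*Il1a* and *Il1b* encode ligands of the same receptor and lie next to each other on chromosome 2, *Il1a* at chr2:129299610-129309972 and *Il1b* at chr2:129364570-129371139 (GRCm38, minus strand). Per kilobase of exon *Il1a* was higher than *Il1b* in all 18 samples, by 14.8-fold to 44.9-fold. The ratio was between 14.8 and 23.9 in WT, 20 and 24.5 in Tyrobp-KO, 18.4 and 44.9 in Q175, and 21.1 and 35.7 in Q175;Tyrobp-KO. *Il1b* had only 17 to 109 counts per sample and *Tnf* 33 to 171, whereas each of the other 8 genes had at least 243, so that counting error weighs most on *Il1b* and *Tnf*. The libraries did not record strand, and *Il1a* shares 222 of its 1974 exonic bases with *Gm14023* on the opposite strand, *Il1b* 25 of 1907 with *Il1bos*, and *Pycard* 485 of 3800 with *Gm45205*. Reads from these stretches cannot be assigned to 1 of the genes with certainty. The other 7 genes share no exonic base with another gene.

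**Figure D2:**
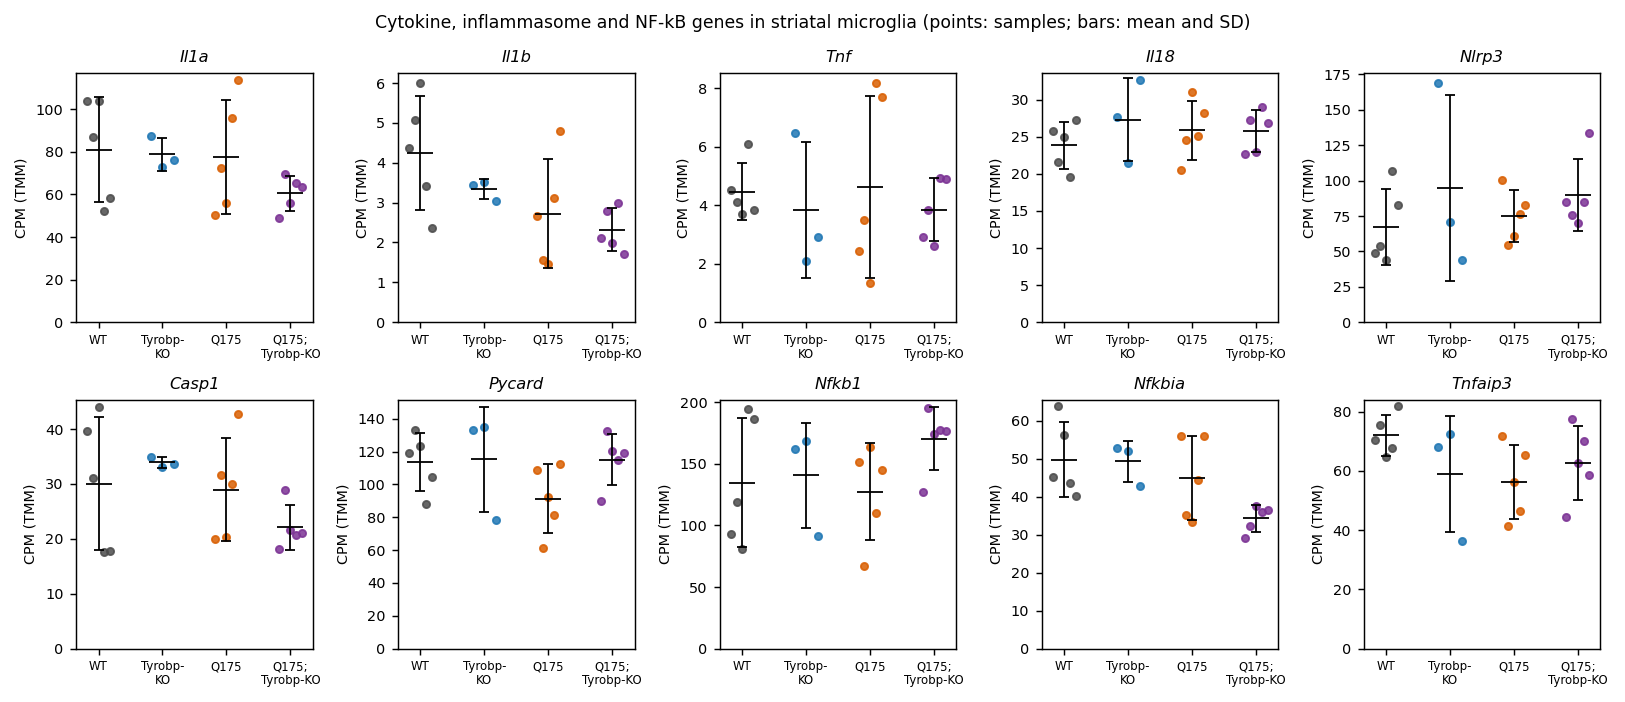
CPM (TMM) of the 10 genes in each sample, by genotype, with 1 point per sample and bars for the mean and SD (n = 5, 3, 5 and 5), each axis starting at 0. The points of *Nfkbia* in Q175;Tyrobp-KO lie between 29.0 and 37.5 CPM, below all WT and Tyrobp-KO points, and *Nlrp3* has single high samples in Tyrobp-KO (169 CPM) and Q175;Tyrobp-KO (134 CPM).

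Among the cytokines, *Il1a* spread widely within WT and Q175 and less within the groups without *Tyrobp*. In WT it had 103.7, 87.1, 104.0, 52.3 and 58.2 CPM in replicates 1, 2, 6, 7 and 8. In Tyrobp-KO it had 87.6, 72.8 and 76.1 CPM in replicates 15, 19 and 20. The WT samples fell on both sides of the Tyrobp-KO samples. In Q175 it had 50.6, 72.7, 55.8, 95.8 and 114 CPM in replicates 3, 4, 9, 14 and 17, the widest range of the 4 groups. In Q175;Tyrobp-KO it had 48.8, 69.6, 56.1, 65.3 and 63.4 CPM in replicates 5, 11, 12, 13 and 16, all below the 3 Tyrobp-KO samples. Replicate 5 lay just under the lowest Q175 sample and the other 4 within the range of Q175.

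*Il1b*, the cytokine that caspase-1 activates, had 4.37, 5.06, 6.01, 3.41 and 2.35 CPM in the same order of WT replicates. It had 3.45, 3.51 and 3.04 CPM in Tyrobp-KO. These lay inside the WT range. In Q175 it had 2.66, 1.56, 1.45, 3.11 and 4.81 CPM, and in Q175;Tyrobp-KO 2.12, 2.79, 1.998, 2.99 and 1.72 CPM. The lowest 2 samples of all were Q175 replicates 9 and 4, and every Q175;Tyrobp-KO sample lay below the 3 Tyrobp-KO samples.

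*Tnf*, which encodes tumor necrosis factor, had 4.53, 4.12, 3.70, 6.10 and 3.83 CPM in WT, 6.47, 2.11 and 2.91 CPM in Tyrobp-KO, and 2.91, 3.84, 2.62, 4.93 and 4.89 CPM in Q175;Tyrobp-KO. In Q175 it had 2.44, 3.50, 1.33, 8.16 and 7.68 CPM, so that replicates 14 and 17 were higher than every WT sample and replicates 3, 4 and 9 lower than every WT sample. *Il18* was the steadiest of the 10 genes, between 19.6 and 32.7 CPM over all samples, a 1.67-fold range. Its means were 23.9 ± 3.19 CPM in WT, 27.3 ± 5.62 in Tyrobp-KO, 25.9 ± 3.99 in Q175 and 25.8 ± 2.82 in Q175;Tyrobp-KO (SD, n = 5, 3, 5 and 5).

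Of the inflammasome genes, *Casp1* had 39.6, 31.1, 44.1, 17.6 and 17.9 CPM in WT, where replicates 7 and 8 stood well below the other 3. It had 35.0, 33.2 and 33.6 CPM in Tyrobp-KO and 19.96, 31.6, 20.3, 30 and 42.7 CPM in Q175. In Q175;Tyrobp-KO it had 18.1, 28.9, 21.6, 20.7 and 21.1 CPM. These 5 samples lay below the 3 Tyrobp-KO samples and inside the WT range.

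*Nlrp3* had the widest range after *Tnf* and *Il1b*, 3.82-fold between the lowest and the highest sample. It had 48.8, 54.1, 44.2, 107 and 82.9 CPM in WT, where the 2 samples lowest in *Casp1* were the highest. In Tyrobp-KO it had 169, 71.0 and 44.2 CPM, a spread from the level of the lowest WT sample to the highest sample of all. It had 100.4, 54.9, 61.0, 76.4 and 83.1 CPM in Q175 and 85.2, 75.5, 70.3, 85.2 and 134 CPM in Q175;Tyrobp-KO. *Pycard* was between 61.2 and 135 CPM, with means of 114 ± 17.8 CPM in WT, 115 ± 32.0 in Tyrobp-KO, 91.3 ± 20.9 in Q175 and 115 ± 15.8 in Q175;Tyrobp-KO (SD, n = 5, 3, 5 and 5).

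In the NF-κB group, *Nfkbia* had 45.2, 63.8, 56.1, 43.5 and 40.1 CPM in WT and 52.9, 51.9 and 42.9 CPM in Tyrobp-KO. It had 55.9, 35.0, 33.2, 44.3 and 56.0 CPM in Q175. In Q175;Tyrobp-KO it had 29.0, 32.3, 37.5, 36.0 and 36.4 CPM. These last 5 samples were below every WT and every Tyrobp-KO sample and overlapped with Q175 replicates 4 and 9.

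*Tnfaip3* had 70.3, 75.4, 64.6, 67.7 and 81.8 CPM in WT and 71.6, 41.4, 56.4, 46.4 and 65.3 CPM in Q175, where 3 samples lay below all WT samples. It had 68.0, 72.5 and 36.4 CPM in Tyrobp-KO and 44.3, 77.4, 62.7, 70.1 and 58.5 CPM in Q175;Tyrobp-KO. Tyrobp-KO replicate 20 was the lowest of all 18. *Nfkb1* was between 67.0 and 196 CPM, with means of 135 ± 52.6 CPM in WT, 141 ± 42.8 in Tyrobp-KO, 127 ± 39.3 in Q175 and 170 ± 25.5 in Q175;Tyrobp-KO (SD, n = 5, 3, 5 and 5).

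Some of these low values came together in the same libraries. *Pycard*, *Nfkb1* and *Tnfaip3* were all at their lowest of the group in Tyrobp-KO replicate 20 (78.4, 91.3 and 36.4 CPM), in Q175 replicate 4 (61.2, 67.0 and 41.4 CPM) and in Q175;Tyrobp-KO replicate 5 (89.7, 127 and 44.3 CPM). Each of these was also the library of its group with the largest share of counts on *Gm26917* and *Gm42418*, a pair of genes that collect ribosomal RNA reads, with 28.55%, 29.54% and 24.22%. Over all samples the 2 genes took between 11.68% and 29.54% of the counts. In WT the shares were highest in replicates 6 and 7 (22.85% and 22.84%), of which replicate 7 had the lowest *Pycard* (87.8 CPM) and replicate 6 the lowest *Nfkb1* (81.1 CPM) and *Tnfaip3* (64.6 CPM). Replicate 7, however, had the highest *Nfkb1* of WT (194 CPM). Tyrobp-KO replicate 20, Q175 replicate 4 and Q175;Tyrobp-KO replicate 5 also had the lowest summed microglia markers of their groups (16590, 12340 and 14720 CPM). In WT the lowest sum was that of replicate 1 (18190 CPM), which had the lowest level of none of *Pycard*, *Nfkb1* and *Tnfaip3*. The part of the ribosomal share or of the microglia markers in the levels was not tested.

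None of the 10 genes differed between Q175 and WT at an FDR of 0.1, and the smallest adjusted p was 0.795 (edgeR's quasi-likelihood test with Benjamini-Hochberg adjustment over 18266 genes). The comparison asks what mutant huntingtin changes in microglia. At this threshold edgeR called 0% of all genes, and the DESeq2 Wald test called 234 genes, none of the 10 among them. *Tnfaip3* was lower in Q175 by 0.37 on the log2 scale (SE 0.17, unadjusted p = 0.0483, adjusted p = 0.795). It was the only one of the 10 with an unadjusted p under 0.05, a cut that 6.24% of all genes passed, and 4 of 25 Q175 and WT sample pairs had the higher value in Q175. *Il1b* was 0.634-fold of WT (95% interval 0.362 to 1.11) and *Pycard* 0.793-fold (0.594 to 1.06). *Il18* was 1.07-fold (0.841 to 1.37), *Nlrp3* 1.11-fold (0.755 to 1.62) and *Nfkbia* 0.892-fold (0.659 to 1.21). *Tnf* was 1.03-fold, with an interval from 0.541 to 1.96. With sex as a term its log2 difference was -0.87, against 0.04 without, and neither passed the test. The median log2 difference of the 10 was -0.09, beside -0.02 over all genes. All 10 overlapped between the groups, where 1.16% of all genes did not.

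Deletion of *Tyrobp* in WT mice likewise gave no call among the 10 genes. The smallest adjusted p in Tyrobp-KO against WT was 0.94, and 0.0222% of 18017 genes were called. None had an unadjusted p under 0.05, against 6.82% of all genes, and all 10 overlapped between the groups, where 4.50% of all genes did not. Of the 10, 5 were higher and 5 lower, with a median log2 difference of -0.01 beside 0.02 over all genes. *Nlrp3* differed most, at 1.40-fold with an interval from 0.735 to 2.67. Without Tyrobp-KO replicate 15, which had 169 CPM, its log2 difference turned from 0.49 to -0.24. *Nfkbia* (0.982-fold, 0.716 to 1.35) and *Pycard* (1.01-fold, 0.704 to 1.44) were the nearest to no difference.

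In Q175 mice, deletion of *Tyrobp* went with lower *Nfkbia*, *Casp1* and *Il1a* and higher *Nfkb1*, *Pycard* and *Nlrp3*, but none of these differences was called. The comparison of Q175;Tyrobp-KO with Q175 asks what the deletion changes in the disease model. The smallest adjusted p was 0.533, and 0.0111% of 18059 genes were called. *Nfkbia* was lower by 0.40 on the log2 scale, 0.756-fold (0.593 to 0.964, unadjusted p = 0.0277), the only one of the 10 with an unadjusted p under 0.05, beside 8.01% of all genes. *Casp1* was 0.754-fold (0.553 to 1.03) and *Il1a* 0.774-fold (0.57 to 1.05). *Nfkb1* was 1.33-fold (0.974 to 1.81) and *Pycard* 1.25-fold (0.987 to 1.58), each higher in the double mutant in 22 of 25 sample pairs. The microglia markers summed to a median of 17320 CPM in Q175 (12340 to 21940) and 20750 in Q175;Tyrobp-KO (14720 to 21830). Their part in these values was not tested. Total count scaling moved the median of all genes by 0.13 on the log2 scale and turned *Il18* alone among the 10, as did TMM without *Gm26917* and *Gm42418*. All 10 overlapped between the groups, where 0.853% of all genes did not.

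**Figure D3:**
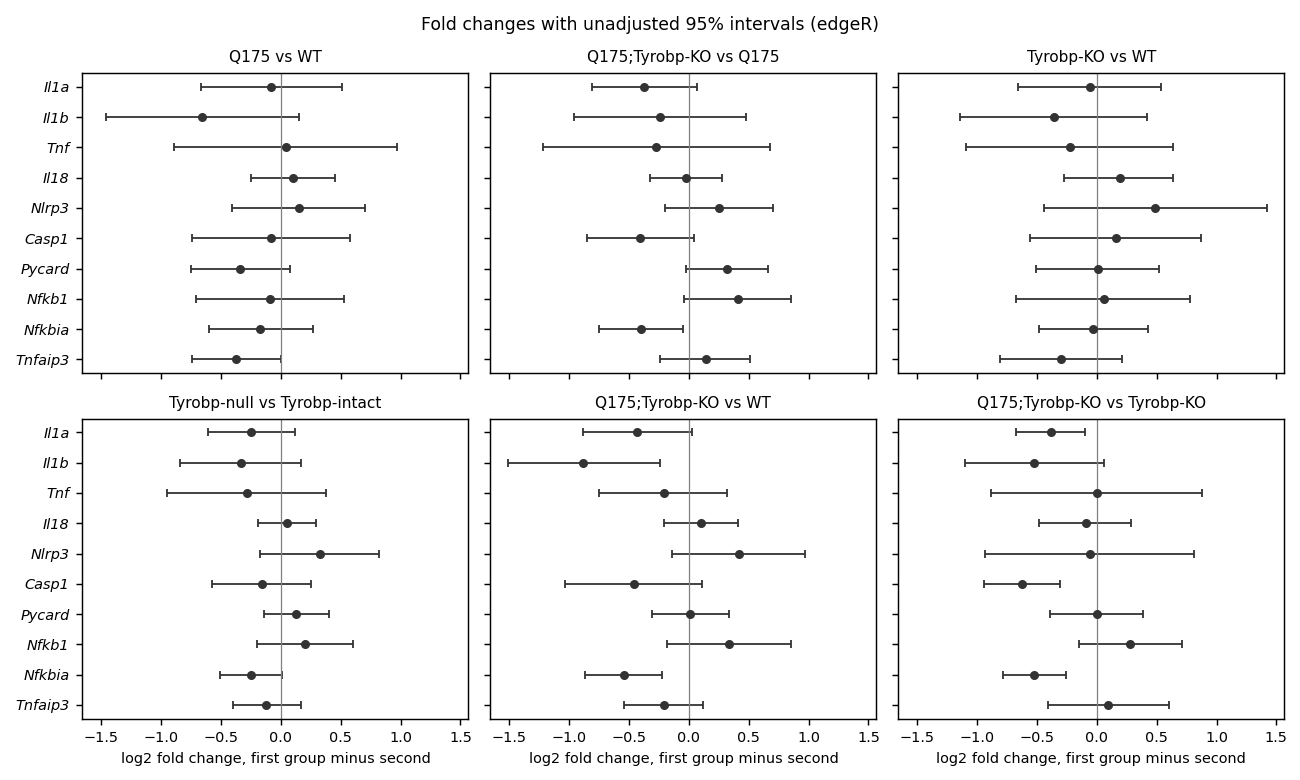
log2 fold changes of the 10 genes in 6 comparisons, first group minus second, with unadjusted 95% intervals from edgeR. No gene was called in any comparison, and intervals that leave out 0 are those of *Tnfaip3* in Q175 against WT, *Nfkbia* in Q175;Tyrobp-KO against each other group, *Il1b* in Q175;Tyrobp-KO against WT, and *Il1a* and *Casp1* in Q175;Tyrobp-KO against Tyrobp-KO.

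Averaging both deletion effects in 1 fit over the 4 groups called 37 genes, 9 higher and 28 lower without *Tyrobp*, which is 0.199% of 18613 genes and none of the 10. *Nfkbia* again had the smallest adjusted p among them, 0.577, at 0.841-fold (0.702 to 1.01). *Nlrp3* was 1.26-fold (0.892 to 1.77) and turned to -0.02 on the log2 scale without Tyrobp-KO replicate 15. None of the 10 had an unadjusted p under 0.05, beside 9.19% of all genes. Leaving out Tyrobp-KO replicate 20 raised the number of calls from 37 to 592, and none of the 10 was among them. The interaction, which tests whether the deletion acts differently in Q175 and in WT, called 0% of genes at the FDR (2 genes by DESeq2) and 6.01% at an unadjusted p under 0.05, none of the 10 at either. The largest term was that of *Tnfaip3*, 0.51 on the log2 scale (SE 0.27, adjusted p = 0.716).

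Because *Nfkbia* was low in Q175;Tyrobp-KO, this group was also set against WT and against Tyrobp-KO, comparisons added after the values were seen that share its samples with those above. In both, the p-values, overlap and calls of *Nfkbia* describe the values that prompted the comparison and are not an independent test. Against WT, *Nfkbia* was 0.686-fold (0.546 to 0.861, unadjusted p = 0.00348, adjusted p = 0.57) and higher in the double mutant in 0 of 25 pairs. *Il1b* was 0.545-fold (0.352 to 0.845, unadjusted p = 0.0105, adjusted p = 0.731) and higher in the double mutant in 2 of 25 pairs. These were 2 of 10 with an unadjusted p under 0.05, beside 6.15% of all genes, and *Nfkbia* was the 1 of 10 without overlap, beside 0.820%. The FDR called 0.139% of 18044 genes and none of the 10.

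Against Tyrobp-KO, 4 of the 10 genes did not overlap, all lower in the double mutant: *Nfkbia* (0.697-fold, 0.58 to 0.836), *Casp1* (0.649-fold, 0.521 to 0.808), *Il1a* (0.767-fold, 0.63 to 0.932) and *Il1b* (0.697-fold, 0.467 to 1.04). The 8 border macrophage markers did not overlap between these groups either. Their sums were 22.0 to 28.9 CPM in Tyrobp-KO and 9.72 to 19.8 in Q175;Tyrobp-KO (10.8 to 19.6 in WT and 8.94 to 37.6 in Q175). The monocyte and neutrophil markers overlapped, at 107 to 319 CPM in Tyrobp-KO and 50.4 to 150 in Q175;Tyrobp-KO. Over the 18 samples the r of *Nfkbia*, *Casp1*, *Il1a* and *Il1b* with these markers was 0.38, 0.51, 0.39 and 0.54. With the border macrophage markers it was 0.34, 0.36, 0.34 and 0.33. The part of either list in the 4 genes was not tested. The background is high here, since 9.04% of all genes did not overlap between these groups of 5 and 3, 13.2% had an unadjusted p under 0.05, and 0% were called. *Nfkbia*, *Casp1* and *Il1a* had unadjusted p-values of 0.00151, 0.00155 and 0.0133, and the smallest adjusted p of the 10 was 0.291. The DESeq2 Wald test, which called 680 genes in this comparison where edgeR called 0, gave adjusted p-values of 0.0137 for *Nfkbia* and 0.0201 for *Casp1*. It also gave 0.0916 for *Nfkbia* against WT, and no other call among the 10 in any of the 7 comparisons.

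Some of the 10 genes varied together from sample to sample. Of 45 pairs, 3 passed both Pearson's and Spearman's test at an adjusted p under 0.05 over 18 samples. How many pairs of other genes would pass was not counted, so these 3 are not set apart from genes in general. *Il1a* and *Casp1* followed each other most closely (r = 0.93, rho = 0.91, both with a permutation p of 1e-05, the smallest that the resamples can give, adjusted p = 0.00045). The r was 0.93 in the 9 females, 0.93 in the 9 males, 0.93 after group means were removed, and 0.90 without the 2 samples farthest from the median of *Il1a*. Caspase-1 itself cuts interleukin-1 beta and not interleukin-1 alpha. *Il1b* and *Nfkbia* gave r = 0.77 and rho = 0.81 (permutation adjusted p = 0.0021 and 0.00112), with 0.75 in females, 0.82 in males, 0.74 after group means were removed and 0.73 without the 2 farthest samples. *Il1a* and *Il1b* gave r = 0.70 and rho = 0.73 (permutation adjusted p = 0.0169 and 0.0171), with 0.51 in females, 0.92 in males and 0.58 without the 2 farthest samples.

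**Figure D4:**
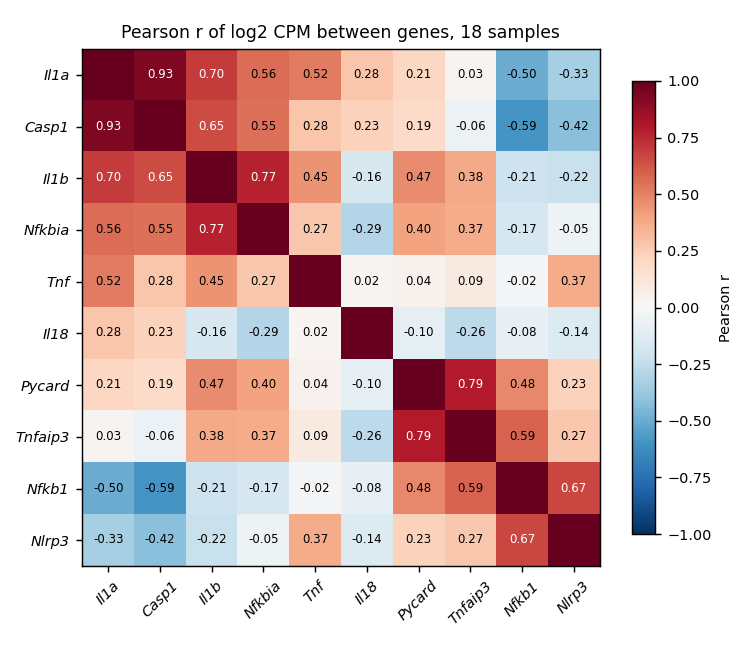
Pearson r of log2 CPM between each pair of the 10 genes over 18 samples, written in each cell and colored from -1 to 1. *Il1a*, *Casp1*, *Il1b* and *Nfkbia* form a block with r from 0.55 to 0.93. Among *Pycard*, *Tnfaip3*, *Nfkb1* and *Nlrp3* r runs from 0.23 (*Pycard* and *Nlrp3*) to 0.79 (*Pycard* and *Tnfaip3*). These are not set apart from the block, since *Il1b* and *Pycard* have 0.47.

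Another 3 pairs passed by Pearson's test only. They were *Il1b* and *Casp1* (r = 0.65, rho = 0.62, permutation adjusted p = 0.0306 and 0.0611), *Pycard* and *Tnfaip3* (r = 0.79, rho = 0.65, permutation adjusted p = 0.0021 and 0.0522) and *Nlrp3* and *Nfkb1* (r = 0.67, rho = 0.59, permutation adjusted p = 0.0202 and 0.0659). *Casp1* and *Nfkb1* ran against each other (r = -0.59, rho = -0.61, permutation adjusted p = 0.0628 and 0.0611). In WT, replicates 7 and 8 had the lowest *Casp1* (17.6 and 17.9 CPM) and *Il1a* (52.3 and 58.2 CPM) and the highest *Nfkb1* (194 and 186 CPM) and *Nlrp3* (107 and 82.9 CPM). Replicate 7 came from a female and replicate 8 from a male. The genes most like each of the 10 over the 18 samples, among those with a mean of at least 10 CPM, were *Ctsc*, *Plek* and *Abcd2* for *Il1a* (r of 0.96, 0.95 and 0.95) and *Tlr7* and *Dhx15* for *Casp1* (0.98 each). For *Nfkb1* they were *Ehd4*, *Nfam1* and *Gab2* (0.99 each), for *Pycard* *Acsl5*, *Gpbp1l1* and *Cebpg* (0.97, 0.95 and 0.94), and for *Tnfaip3* *Manba*, *Scpep1* and *Sav1* (0.92, 0.91 and 0.91). *Nfkbia* was most like *Cyba*, *Npc2* and *Gsto1* (0.87, 0.84 and 0.83) and *Il1b* most like *Urod*, *Itm2b* and *Npc2* (0.86, 0.85 and 0.85). *Nlrp3* followed *Aldh3b1*, *Socs3* and *Galnt10* (0.82, 0.80 and 0.80), *Tnf* *Plk3*, *Ifi204* and *Cd274* (0.83, 0.77 and 0.77), and *Il18* *Trappc6b*, *Zfp931* and *AW554918* (0.73, 0.68 and 0.64). These likenesses share libraries and depth and are descriptions.

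Levels of *Pycard*, *Tnfaip3* and *Nfkb1* went with the markers of cell type. Their log2 levels had r of 0.86, 0.77 and 0.67 with the summed microglia markers over 18 samples, and -0.67, -0.79 and -0.68 with the summed neuron markers. With the dissociation response genes r was 0.64, 0.58 and 0.74. For *Il1a* and *Casp1* the r with microglia markers was 0.10 and 0.09, and with dissociation response genes -0.15 and -0.17. *Nfkbia* lay between, at 0.39 and 0.37. These values are descriptions over the same libraries, and the part of cell makeup in the levels was not tested.

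Around the 10 genes, 10 lists with 156 other genes were examined. They cover these pathways, apart from 1 list of 18 dissociation response genes. In the 7 comparisons edgeR called only *Ccl3*, *Ccl4* and *Csf1* among the 156. All 3 were lower without *Tyrobp*. They were 3 of 141 list genes tested in the averaged comparison, beside 0.199% of all genes called. In the double mutant against WT 2 of 137 were called, beside 0.139%. The lists were chosen with earlier results of these data known. The study had already named *Ccl3* and *Ccl4* among the genes that differed between Q175;Tyrobp-KO and Q175 microglia. The shares of list genes given here and below are therefore descriptions and not a test of the lists. *Ccl3* and *Ccl4* encode chemokines that microglia make on NF-κB activation, and *Csf1* encodes a growth factor for microglia and macrophages. *Ccl3* had between 16.4 and 36.1 CPM in WT and between 7.05 and 33.9 in Q175, against 4.49 to 9.38 in Tyrobp-KO and 2.97 to 5.58 in Q175;Tyrobp-KO. Averaged over both backgrounds *Ccl3* fell by 1.83 on the log2 scale without *Tyrobp* (SE 0.28, adjusted p = 0.00668), *Csf1* by 0.91 (SE 0.16, adjusted p = 0.0178) and *Ccl4* by 1.74 (SE 0.34, adjusted p = 0.0467). *Csf1* had between 31.9 and 73.4 CPM in WT and 44.1 and 71.2 in Q175, against 17.1 to 29.98 in Tyrobp-KO and 32.0 to 41.3 in Q175;Tyrobp-KO. *Ccl4* had between 9.71 and 24.2 CPM in WT and 4.83 and 21.6 in Q175, against 2.48 to 8.53 in Tyrobp-KO and 1.88 to 7.18 in Q175;Tyrobp-KO. The call of *Ccl4* was lost without WT replicate 1 (adjusted p = 0.11), Tyrobp-KO replicate 19 (0.223), or Q175;Tyrobp-KO replicate 12 (0.104) or 13 (0.102), whereas *Ccl3* and *Csf1* were called without any 1 sample, with adjusted p-values up to 0.0447 and 0.0915.

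**Figure D5:**
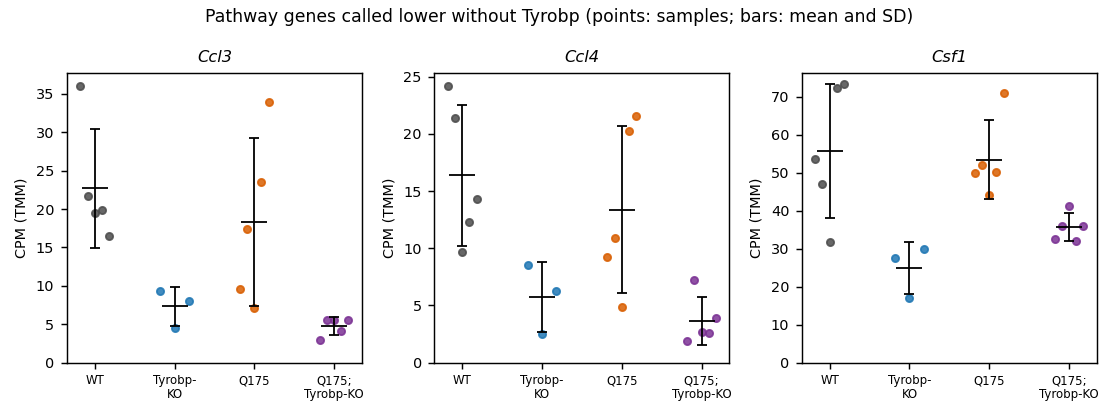
CPM (TMM) of *Ccl3*, *Ccl4* and *Csf1* in each sample by genotype, with 1 point per sample and bars for the mean and SD (n = 5, 3, 5 and 5), axes starting at 0. In Q175;Tyrobp-KO *Ccl3* lies between 2.97 and 5.58 CPM, below all WT and Q175 samples.

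Within each background, these 3 genes had the smallest p-values of the 156 but were not called by edgeR in the fits of each pair of groups. In Tyrobp-KO against WT, *Ccl3* was 0.32-fold (0.188 to 0.543), *Csf1* 0.447-fold (0.279 to 0.715) and *Ccl4* 0.349-fold (0.177 to 0.686). Each had an adjusted p of 0.565, and none overlapped between the groups, where 4.50% of all genes did not. In Q175;Tyrobp-KO against Q175, *Ccl3* was 0.258-fold (0.147 to 0.454, adjusted p = 0.335) and *Csf1* 0.659-fold (0.538 to 0.807, adjusted p = 0.533), both without overlap, beside 0.853% of all genes. *Ccl4* was 0.269-fold (0.141 to 0.513, adjusted p = 0.533). The DESeq2 Wald test called the 3 in both comparisons, with adjusted p-values between 0.000407 and 0.0786. For Q175;Tyrobp-KO against Q175 edgeR itself called *Ccl3* with no filter (adjusted p = 0.091), in 1 fit over the 4 groups (0.0714) and without Q175 replicate 9 (0.0849). Against WT the double mutant had *Ccl3* at 0.209-fold (0.145 to 0.302, adjusted p = 0.00376) and *Ccl4* at 0.223-fold (0.129 to 0.384, adjusted p = 0.0545), and the second call was lost with sex as a term (adjusted p = 0.102) or without any of 6 samples, WT replicate 1 or 2 or Q175;Tyrobp-KO replicate 5, 12, 13 or 16 (0.103 to 0.202).

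In Q175 against WT 9 of 137 tested genes of the lists had an unadjusted p under 0.05, 6.57% beside 6.24% of all genes. Of these 9, 2 were higher and 7 lower, whereas of all genes that passed 1000 were higher and 140 lower. Among the 5 with the smallest p, the lower ones were *Birc3* (0.749-fold), an NF-κB target that encodes a ubiquitin ligase, *Adam17* (0.75-fold), the protease that sheds tumor necrosis factor, and *Klf6* (0.684-fold) of the dissociation list. The higher ones were *Vcam1* (1.5-fold), a cell adhesion molecule, and *Il33* (1.87-fold), a cytokine that astrocytes and oligodendrocytes express in brain. The 5 adjusted p-values were between 0.652 and 0.729. In Q175 and WT the median sums were 1592 and 661 CPM for astrocyte markers, 3686 and 2332 for oligodendrocyte markers, and 629 and 316 for neuron markers, and their part in these values was not tested. Of 17 inflammasome sensors and effectors tested, 16 were lower in Q175, with a median log2 difference of -0.18, and none passed. The microglia markers summed to between 12340 and 21940 CPM in Q175 and between 18190 and 20020 in WT. Of 13 NF-κB subunits and kinases 12 were lower, with a median of -0.12 and 2 passing. This direction was not particular to these lists. Every list had a median under 0 except the IL-1 and IL-18 receptors and antagonists (0.07). The lowest median was that of the dissociation response genes (-0.30, with 12 lower and 4 higher). Over all genes 46.7% were higher and the median was -0.02. In Q175;Tyrobp-KO against Q175, 16 of 137 passed (11.7%, beside 8.01% of all genes), 6 higher and 10 lower, and 5 of the 10 were among 18 NF-κB inducible effector genes, a list with a median log2 difference of -0.18 beside -0.05 over all genes. The 13 NF-κB adaptors had a median of 0.22, with 10 higher and 1 passing.

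In Tyrobp-KO against WT 15 of 141 passed (10.6%, beside 6.82% of all genes), 5 higher and 10 lower. *Ccl5*, a chemokine of T cells and activated myeloid cells, was 4.5-fold of WT (1.6 to 12.6, adjusted p = 0.593), from 1.19 ± 0.806 CPM in WT to 5.42 ± 3.53 in Tyrobp-KO (SD, n = 5 and 3). The 9 T and NK cell markers summed to between 0.986 and 3.31 CPM in WT and between 1.78 and 7.01 in Tyrobp-KO. *Il12b*, a subunit of interleukin-12, had 0 to 10 counts in WT, 0 to 3 in Q175, 3 to 41 in Tyrobp-KO and 0 to 70 in Q175;Tyrobp-KO. It was not called in the averaged comparison by edgeR (adjusted p = 0.167), but was with no filter (0.0943) and without WT replicate 6 (0.0827), Tyrobp-KO replicate 20 (0.0971) or Q175;Tyrobp-KO replicate 5 (0.0697). Its highest level was 0.5516 CPM in WT and 0.2218 in Q175. It thus passed the filter of 1 CPM only through samples without *Tyrobp*, and its calls in filtered fits, by either tool, are not support for a difference. In the averaged comparison 22 of 141 genes passed the unadjusted cut (15.6%, beside 9.19% of all genes), 6 higher and 16 lower. The 19 NF-κB inducible effector genes had a median log2 difference of -0.43, with 8 higher, 11 lower and 2 called, while 15 of 18 inflammasome genes were higher, with a median of 0.11 and none called. *Egr1*, an early response gene in the dissociation list, was 0.453-fold (0.292 to 0.702, adjusted p = 0.214), from 13.1 CPM with *Tyrobp* to 6.11 without, and was called without Tyrobp-KO replicate 20 (adjusted p = 0.0288). DESeq2 called *Il12b* and *Egr1* in this comparison (adjusted p = 0.0186 and 0.0358).

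For the interaction, 3 of 141 genes had an unadjusted p under 0.05. They were *Il33*, *Rc3h1*, which encodes the mRNA decay factor roquin-1, and *Klf6* of the dissociation list. Their terms were -1.54, 0.57 and 0.66 on the log2 scale, with an adjusted p of 0.716 each. *Tbk1* (0.43) and *Ikbkg* (0.37), a kinase and a regulatory subunit of NF-κB activation, came next. In Q175;Tyrobp-KO against WT the genes that followed *Ccl3* and *Ccl4* were not called by edgeR. *Cxcl16* was 0.55-fold (adjusted p = 0.148), *Cd83* 0.615-fold (0.538) and *Egr1* 0.488-fold (0.632), of which DESeq2 called *Cxcl16* and *Cd83* (adjusted p = 0.000693 and 0.0463). Against Tyrobp-KO, *Cebpb*, a transcription factor of inflammatory genes, was 0.645-fold, *Birc2* 0.791-fold, *Tax1bp1*, a partner of A20, 0.774-fold, *Tab1* 1.28-fold and *Il18bp*, which binds and blocks interleukin-18, 1.43-fold, with adjusted p-values between 0.291 and 0.315 by edgeR. DESeq2 called *Cebpb* and *Tab1* among these (adjusted p = 0.0959 and 0.0937).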

How the data were processed

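Microglia RNA-seq of 18 mouse striatal samples was analysed. Per the labels and methods, the authors made non-directional SMART-Seq libraries, aligned reads with STAR and counted them with featureCounts. The deposited values are raw counts per Ensembl gene. The methods name GRCm38 and a UCSC gene model, the labels a human build, and all 55536 identifiers matched GENCODE M21, which gave symbols, positions and exonic lengths. The labels give a pair of striata per sample, the methods 1. Another 2 columns with no sample in the labels were not used. The methods dissociated the striata of each mouse separately, while the labels do not name the animals, so p-values measure the spread between samples.

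Counts were tested with edgeR 4.0.16 in R 4.3.3 (TMM, quasi-likelihood), keeping genes with at least 1 CPM in 1 sample of the fit, on the groups compared only, or on all 4 for the averaged and interaction contrasts, with Benjamini-Hochberg adjustment at an FDR of 0.1. This replaced the authors' DESeq2, kept as an alternative (1.42.0). The fits were tested on simulated data. Correlations used log2 CPM (prior count 2) and 2-sided permutation tests with 100000 resamples. The highest correlation between any 2 samples was 0.992, and none was treated as a copy. Alternatives were DESeq2, its size factors, total counts, TMM without *Gm26917* and *Gm42418*, filterByExpr, no filter, sex as a term, an FDR of 0.05, 1 fit over 4 groups, and leaving out each sample. The 10 genes and the lists were chosen with earlier results of these data known, and 2 comparisons were added after seeing the data. Named from the lists are all called genes and the 5 smallest p-values per comparison, and, as most alike, the 3 genes with the highest r, of which 1 is not reported here. Reads without molecular identifiers are not independent molecules.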

Additional observations from a re-analysis of the deposited data

Results flagged for a closer look

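*Nlrp3* in Q175;Tyrobp-KO replicate 16 stood apart from the other 4 samples of its group, with 134 CPM against 85.2 CPM in the nearest and 70.3 CPM in the lowest. The gap to the nearest was 0.765 of the range of the group. It was the 1 case among 30 groups of 5 tested (10 genes in 3 genotypes), and chance alone gives about 1 in 20. Without this sample none of the 10 genes was called in any comparison.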

How the results depend on the processing

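The 10 genes in 7 comparisons gave 70 results and 1360 alternatives. Of these, 3 became calls, all by DESeq2 in the added comparisons, and 75 turned direction in 23 results, none of which was called. The other 1282 did neither. The cause of these turns was not tested. Turns were counted on rounded values, so a difference of 0.00 could not turn. That was so for *Tnf* and *Pycard* in Q175;Tyrobp-KO against Tyrobp-KO, which ran from -0.28 to 0.62 and from -0.19 to 0.13 over the alternatives. No paired analysis was possible because the groups share no replicate number.

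DESeq2 called 234 genes (edgeR 0) in Q175 against WT, 41 (2) in Q175;Tyrobp-KO against Q175, 168 (4) in Tyrobp-KO against WT, 204 (37) in the averaged contrast, 2 (0) for the interaction, and in the added comparisons 123 (25) against WT and 680 (0) against Tyrobp-KO. For Q175;Tyrobp-KO against Q175 the count was 9 with no filter, 1 with sex as a term, 1 at an FDR of 0.05, 14 in 1 fit over the groups, and 1 to 5 when leaving out single samples (5 without Q175 replicate 9). For Tyrobp-KO against WT it was 15 with no filter, 8 in 1 fit and 2 to 8 leaving out single samples (2 without Tyrobp-KO replicate 15 or 19, 8 without WT replicate 6). For the averaged contrast it was 22 to 592 leaving out single samples (22 without WT replicate 1 or Tyrobp-KO replicate 19, 24 without Q175;Tyrobp-KO replicate 12, 83 without Q175 replicate 17, 592 without Tyrobp-KO replicate 20), and for the double mutant against WT 16 at an FDR of 0.05 and 9 to 26 (9 without WT replicate 1, 15 without WT replicate 2 or Q175;Tyrobp-KO replicate 13, 13 without Q175;Tyrobp-KO replicate 12, 10 without Q175;Tyrobp-KO replicate 16).

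In log2 differences, sex as a term turned *Tnf* (-0.87), *Nlrp3* (-0.20) and *Casp1* (0.03) in Q175 against WT, *Tnf* (0.15) in Q175;Tyrobp-KO against Q175, *Il1a* (0.13), *Nfkb1* (-0.01) and *Nfkbia* (0.06) in Tyrobp-KO against WT, *Nlrp3* (0.34) for the interaction, and *Nlrp3* (0.09) and *Tnfaip3* (-0.02) in the double mutant against Tyrobp-KO. Total count scaling turned *Tnf* (-0.07) in Q175 against WT and *Il18* in Q175;Tyrobp-KO against Q175 (0.11), against Tyrobp-KO (0.03) and for the interaction (0.01), where it moved the median of all genes by 0.11. Without the 2 ribosomal genes *Il18* turned in Q175;Tyrobp-KO against Q175 (0.01) and *Tnf* for the interaction (-0.03). With no filter *Tnf* turned for the interaction (-0.05) and *Pycard* in the double mutant against WT (-0.01), and in 1 fit over the groups *Pycard* (-0.07) and *Nfkb1* (-0.02) turned in Tyrobp-KO against WT and *Pycard* (-0.04) in the double mutant against WT.

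Leaving out single samples, the range in Q175 against WT was -0.28 to 0.04 for *Il1a*, -0.27 to 0.26 for *Tnf*, -0.28 to 0.11 for *Casp1* and -0.22 to 0.06 for *Nfkb1*. In Q175;Tyrobp-KO against Q175 it was -0.40 to 0.05 for *Il1b*, -0.52 to 0.02 for *Tnf* and -0.09 to 0.05 for *Il18*. In Tyrobp-KO against WT it was -0.19 to 0.07 for *Il1a*, -0.84 to 0.08 for *Tnf*, -0.24 to 0.80 for *Nlrp3*, -0.11 to 0.19 for *Pycard*, -0.09 to 0.25 for *Nfkb1* and -0.10 to 0.07 for *Nfkbia*. In the averaged contrast it was -0.02 to 0.54 for *Nlrp3* and -0.19 to 0.05 for *Tnfaip3*, and for the interaction -0.28 to 0.62 for *Tnf*, -0.31 to 0.01 for *Il18* and -0.52 to 0.55 for *Nlrp3*. In the added comparisons it was -0.07 to 0.08 for *Pycard* against WT, and -0.24 to 0.10 for *Il18*, -0.39 to 0.67 for *Nlrp3* and -0.14 to 0.27 for *Tnfaip3* against Tyrobp-KO.

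Depth limits *Il1b* and *Tnf*, with under 200 counts in every sample, and group sizes of 3 to 5 limit all 10 genes.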
